A study of Mus musculus with 50 samples.

Results

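The transcription factor genes Otx2, Hesx1, Lmx1b, Pax6, Six3, Sox1 and Sall1 were described, 7 of 55421 genes listed in each TPM table and 6 of 17043 in the FPKM table. They were chosen by symbol as regulators of the early nervous system, and several because they were higher with a hairpin against β-catenin in ES cells in 2i medium. All 7 had a row in each of the 3 TPM tables, and 6 had one in the FPKM table, which leaves out any gene at 0 in a library and does not list Six3. Otx2, Hesx1, Lmx1b, Pax6 and Six3 encode homeobox proteins. Sox1 encodes an HMG-box protein of the SoxB1 group, and Sall1 a zinc finger protein, so neither is a homeobox gene.

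RNA-seq was made from mouse embryonic stem (ES) cells and epiblast-like cells (epiLC), which ES cells become as they leave the naive state. V6.5 ES cells, an established mouse line, were held in 2i medium (inhibitors of MEK and GSK3). Their hairpin groups were shBcat against β-catenin with 2 libraries, shE2F6 against E2F6 with 2, shHP1r against HP1γ with 2, and shGFP, the mock control, with 6. A line labelled QKO, which the labels do not spell out, carried shBcat or shGFP in 2i with a time of 48 h (n = 3 each). Of V6.5 epiLC, shBcat cells gave 2 libraries at each of 24, 48 and 96 h, and control cells, whose labels name no hairpin, 2 libraries at 96 h. A further table held control epiLC at the 2 earlier times and unmodified V6.5 cells in 2i, again with 2 libraries a group. Nothing in the labels ties replicates to separate cultures, and the spread that p-values rest on may be a technical one. The hairpin groups are cell populations named by their hairpin alone, and the labels give neither its sequence nor the time since its delivery for V6.5 cells in 2i.

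The head end of the neural plate forms where Wnt signals are low, and β-catenin, the protein that carries canonical Wnt signals to TCF and LEF factors on DNA, acts there against anterior fates. Otx2 and Six3 lay down the forebrain and midbrain, Hesx1 works in the forebrain and pituitary, Pax6 in eye and forebrain, Lmx1b at the midbrain-hindbrain boundary and in limbs, Sox1 marks the neural plate, and Sall1 acts in kidney, limb and ES cells. In 2i medium GSK3 inhibition stabilizes β-catenin, and Otx2 also takes part in the step out of the naive state towards the epiblast.

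Ctnnb1, which encodes β-catenin, was lower in every library labelled shBcat. It stood at 6.58 and 6.61 FPKM with shBcat and 88.8 to 134 FPKM with shGFP in V6.5 cells, at 48.4 to 82.4 TPM with shBcat and 490 to 528 TPM with shGFP in QKO cells, and at 142 to 145 TPM with shBcat and 441 to 448 TPM in control epiLC at 96 h. E2f6 stood at 2.57 and 3.54 FPKM with shE2F6 and 8.98 to 10.7 FPKM with shGFP, and Cbx3, which encodes HP1γ, at 6.60 and 7.25 FPKM with shHP1r and 56.7 to 71.2 FPKM with shGFP. The mitochondrial share of all FPKM was 22.3% and 22.9% with shE2F6 and 19.3% and 20.4% in shGFP replicates 3 and 4, and 6.23% to 10.3% in the remaining 8 libraries of that table. By replicate number, shGFP 1 and 2, 3 and 4, and 5 and 6 were close to each other, with a median absolute log2 difference of 0.05 to 0.07 within a pair and 0.16 to 0.37 across pairs. All 7 markers of naive ES cells reached 1 FPKM or TPM in every library, and all 5 markers of epiLC reached 1 TPM in every epiLC library, against 3 of them in unmodified 2i cells. Sequencing depth is unknown for every library. FPKM and TPM are both scaled to transcript length, so levels of different genes can be compared within a table, and tables were normalized separately.

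By RefSeq (GRCm38.p6), Otx2 (ENSMUSG00000021848) lies on chromosome 14 from 48656781 to 48667644, Hesx1 (ENSMUSG00000040726) on chromosome 14 from 26994419 to 27002329, and Lmx1b (ENSMUSG00000038765) on chromosome 2 from 33560965 to 33641208. Pax6 (ENSMUSG00000027168) lies on chromosome 2 from 105668896 to 105698410, Six3 (ENSMUSG00000038805) on chromosome 17 from 85613608 to 85626191, Sox1 (ENSMUSG00000096014) on chromosome 8 from 12395519 to 12399555 and Sall1 (ENSMUSG00000031665) on chromosome 8 from 89027242 to 89044162. These spans cover whole genes, exons, introns and untranslated regions included. RefSeq gave 13 promoter windows for the 7 genes, each of 300 bases (250 before and 50 after a start), 4 of them for Otx2, 3 for Sall1, 2 for Pax6 and 1 for each other gene. Their GC content ran between 33.7% (Hesx1) and 79.7% (Sall1), against a median of 52.7% over 32851 windows. The letters of 3 short motifs were searched on both strands. CTTTGA (the core bound by TCF and LEF factors) was in 16% of all windows and in 1 of the 13, TAATTA (bound by many homeodomain proteins, and its own reverse complement) in 5.29% and in 2 of the 13, and TAATCC (bound by Otx-type homeodomains) in 7.06% and in 1 of the 13. No pair of these matches overlapped, and a match is a description of letters, not a binding site.

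The 3 windows with a match are shown for where these letters lie, and that of Hesx1 for its low GC, with matches in capitals. The upstream Otx2 window holds TAATTA, starting 141 bases before its start. The other Otx2 window with a match holds TAATTA at 234, 174 and 154 bases before its start and GGATTA, the reverse complement of TAATCC, at 211. It is called downstream relative to the first, and a further Otx2 window, not shown, lies downstream of both. The Sall1 window holds TCAAAG, the reverse complement of CTTTGA, at 153 bases before its start, and the Hesx1 window holds none of the 3.
Otx2 upstream start, GRCm38.p6, chr14:48667595-48667894, minus strand: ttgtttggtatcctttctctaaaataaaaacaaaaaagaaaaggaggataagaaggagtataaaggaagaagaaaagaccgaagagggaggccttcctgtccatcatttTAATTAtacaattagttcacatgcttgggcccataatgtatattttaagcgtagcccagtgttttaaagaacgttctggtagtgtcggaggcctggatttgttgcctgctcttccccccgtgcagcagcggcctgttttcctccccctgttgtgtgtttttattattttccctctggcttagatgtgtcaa
Otx2 downstream start, GRCm38.p6, chr14:48665060-48665359, minus strand: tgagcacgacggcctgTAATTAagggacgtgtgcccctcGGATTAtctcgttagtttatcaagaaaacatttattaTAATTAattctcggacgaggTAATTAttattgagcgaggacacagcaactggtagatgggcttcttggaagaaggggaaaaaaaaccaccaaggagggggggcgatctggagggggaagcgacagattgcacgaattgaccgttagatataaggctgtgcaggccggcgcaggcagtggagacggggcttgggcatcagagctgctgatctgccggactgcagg
Sall1, GRCm38.p6, chr8:89044113-89044412, minus strand: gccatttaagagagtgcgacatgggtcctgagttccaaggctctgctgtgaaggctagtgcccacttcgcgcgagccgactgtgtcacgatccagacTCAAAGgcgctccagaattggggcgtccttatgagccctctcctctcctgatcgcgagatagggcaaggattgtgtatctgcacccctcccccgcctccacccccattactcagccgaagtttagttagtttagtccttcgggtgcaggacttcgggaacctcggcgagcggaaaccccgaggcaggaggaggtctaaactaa
Hesx1, GRCm38.p6, chr14:27000112-27000411, plus strand: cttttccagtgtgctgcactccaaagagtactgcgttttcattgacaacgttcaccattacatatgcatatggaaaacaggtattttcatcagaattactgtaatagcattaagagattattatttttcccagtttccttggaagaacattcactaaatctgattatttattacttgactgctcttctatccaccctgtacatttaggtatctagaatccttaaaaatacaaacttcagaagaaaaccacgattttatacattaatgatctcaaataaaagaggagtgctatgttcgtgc

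The comparison of shBcat with shGFP in V6.5 cells asks which genes change when β-catenin is lowered in the naive state. The genes were chosen on it, so their values are a description with no test. Otx2, Hesx1, Lmx1b, Sox1 and Sall1 were higher in both shBcat libraries than in any shGFP library, and Pax6 overlapped. Genes whose 2 shBcat libraries both lay above all 6 shGFP libraries made up 16.6% of the 14407 tested, a share from which nothing is read here.

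Otx2, the head and epiblast homeobox gene, stood at 6.46 and 6.75 FPKM with shBcat, and at 1.15, 1.40, 1.06, 0.899, 1.64 and 1.69 FPKM in shGFP replicates 1 to 6 by number. The lowest shBcat value was above the highest shGFP value, the ratio of means was 5.06, and the log2 difference (on the log2(FPKM + 1) scale, as all below) was 1.73 (SE 0.16). Hesx1, a transcriptional repressor needed for forebrain and pituitary development, stood at 10.8 and 9.13 FPKM with shBcat, and at a lowest 1.20, a median 1.46 and a highest 1.89 FPKM with shGFP. The groups did not overlap, and the ratio of means was 6.68, a log2 difference of 2.14 (SE 0.19). Lmx1b, a LIM homeobox gene, stood at 8.67 and 8.83 FPKM with shBcat, and at a lowest 1.01, a median 1.12 and a highest 1.40 FPKM with shGFP. It had the highest ratio of means among the 6 genes, 7.69, and a log2 difference of 2.19 (SE 0.10).

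Sox1, the neural plate gene, stood at 2.01 and 2.55 FPKM with shBcat, and at a lowest 0.226, a median 0.364 and a highest 0.453 FPKM with shGFP. The groups did not overlap (ratio of means 6.65, log2 difference 1.29, SE 0.15). It passed the filter of 1 FPKM in at least 2 libraries only through the shBcat libraries, where it is high. Sall1, by far the most abundant of the 6, stood at 50.5 and 51.2 FPKM with shBcat, and at 25.1 to 33.4 FPKM with shGFP with a median of 28.6. It did not overlap either, but its ratio of means was only 1.75 (log2 difference 0.79, SE 0.15), the smallest of the non-overlapping genes. Pax6, the eye and forebrain gene, stood at 1.33 and 1.40 FPKM with shBcat, and at 0.286, 0.297, 1.77, 1.68, 0.495 and 0.535 FPKM in shGFP replicates 1 to 6 by number. The 2 shGFP libraries of high mitochondrial share, replicates 3 and 4, lay above both shBcat libraries, and the log2 difference of 0.44 (SE 0.32) is -0.20 against them alone. The other 4 shGFP libraries, at 0.286 to 0.535 FPKM, lay below both shBcat libraries. Mitochondrial share was 10.3% and 9.99% with shBcat, 20.4% and 19.3% in shGFP replicates 3 and 4, and 6.23% to 8.92% in the other 4.

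The order of levels differed between the groups. With shBcat it was Sall1, Hesx1, Lmx1b, Otx2, Sox1 and Pax6 by mean FPKM, and with shGFP Sall1, Hesx1, Otx2, Lmx1b, Pax6 and Sox1. Hesx1, Otx2 and Lmx1b lay within the spread of their libraries of one another with shGFP (means 1.49, 1.31 and 1.14 FPKM). Pax6 overlapped through shGFP replicates 3 and 4, at 1.77 and 1.68 FPKM, with its 4 lower shGFP libraries at 0.535 FPKM or less. Sall1, of the smallest ratio among the non-overlapping genes, had 50.5 FPKM as its lower shBcat value and 33.4 FPKM as its highest shGFP value.

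**Figure D1:**
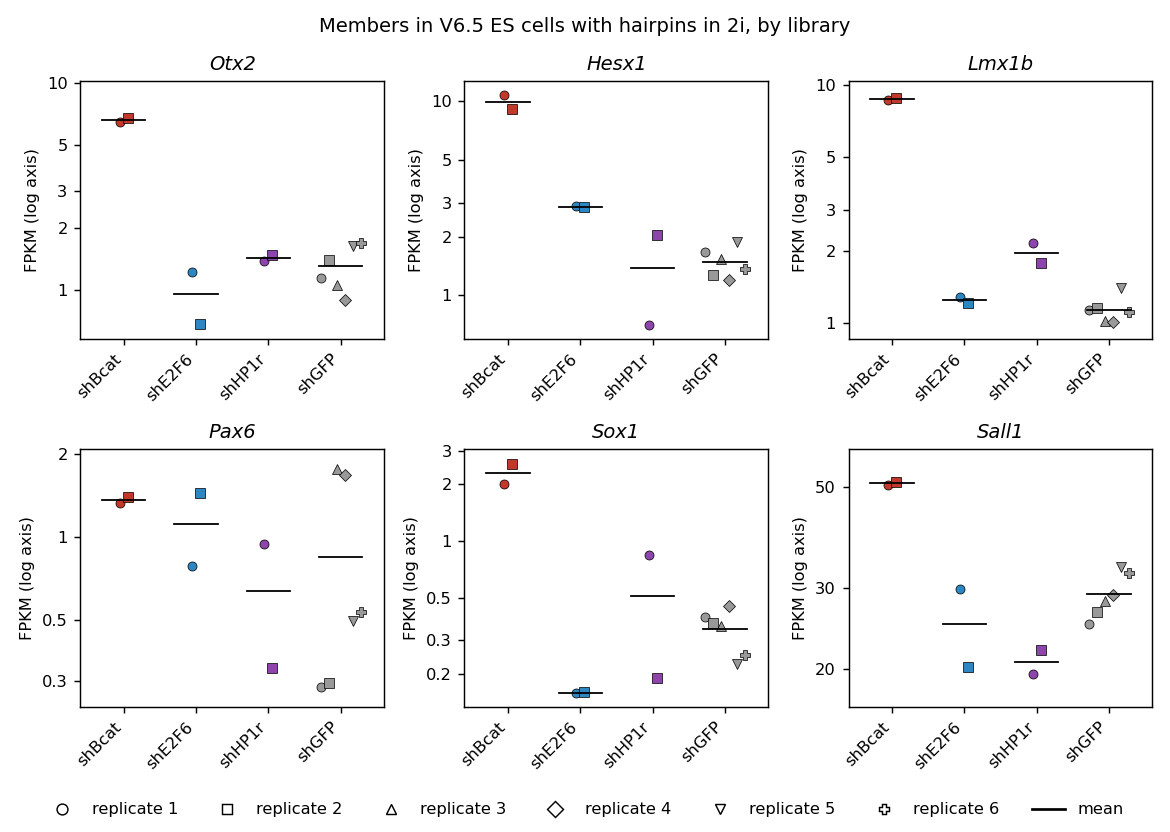
FPKM of each gene (log axes, 1 point per library, symbols for replicate numbers, black lines for means) in V6.5 cells in 2i with shBcat, shE2F6, shHP1r or shGFP. The shBcat points stand above all others for 5 genes, with Otx2 at 6.46 and 6.75 FPKM, and the Pax6 points of shGFP split into 1.68 and 1.77 FPKM in 2 libraries and 0.286 to 0.535 FPKM in 4.

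Markers of neurons moved in the same libraries. The 6 neuron markers listed in the table (of 7) summed to 69.3 and 74.9 FPKM with shBcat and to 29.5 to 44.2 FPKM with shGFP, and 5 of them were higher without overlap. Tubb3, a neuronal tubulin, stood at 44.0 to 48.9 FPKM with shBcat and 20.6 to 30.7 FPKM with shGFP, and Stmn2 at 21.7 to 22.3 FPKM with shBcat and 7.61 to 12.9 FPKM with shGFP. Dcx, a marker of migrating neurons, was near 0 in both groups (0.0105 to 0.0217 FPKM with shBcat and 0.0105 to 0.0469 FPKM with shGFP). Markers of neural crest (6 of 7 listed) summed to 7.50 and 7.95 FPKM with shBcat and 12.3 to 22.4 FPKM with shGFP. Markers of mesoderm and primitive streak (4 of 6 listed) summed to 1.44 and 1.55 FPKM with shBcat and 3.86 to 8.20 FPKM with shGFP. Sox10 and Tfap2a of neural crest and Hand1 of mesoderm overlapped, and the other listed markers of both were lower without overlap. Markers of endoderm (4 of 7 listed) summed to 6.38 and 6.69 FPKM with shBcat and 4.93 to 6.96 FPKM with shGFP. Of these Sox7 was higher without overlap (0.344 to 0.35 FPKM with shBcat, 0.0401 to 0.165 FPKM with shGFP), and Gata4, Gata6 and Hhex overlapped. Of the markers of epiblast-like cells, Fgf5 stood at 0.595 to 0.604 FPKM with shBcat and 0.101 to 0.183 FPKM with shGFP, Pou3f1 at 0.785 to 0.824 FPKM with shBcat and 0.119 to 0.355 FPKM with shGFP, and Dnmt3b at 15.8 to 17.2 FPKM with shBcat and 6.17 to 12.6 FPKM with shGFP, all without overlap. Summed over that list the groups overlapped (380 and 391 FPKM with shBcat, 209 to 450 FPKM with shGFP), as did the sums of the naive markers (939 and 956 FPKM with shBcat, 683 to 1233 FPKM with shGFP). Among the naive markers Tfcp2l1 was lower without overlap (26.5 to 27.6 FPKM with shBcat, 40.6 to 75.1 FPKM with shGFP). Sox2, which stands in both lists, was higher without overlap (137 to 141 FPKM with shBcat, 67.6 to 124 FPKM with shGFP), and the other naive markers overlapped. The part of all these markers in the members' values was not tested, and in these bulk samples more cells of a type and more RNA per cell cannot be told apart. Among 29 other factors of the forebrain and neural plate 12 were tested, 10 of them with a log2 difference above 0, and the median was 0.32 beside 0.01 over all genes. All 3 tested factors of the midbrain and hindbrain had a difference below 0 (median -0.35), and of 9 tested paralogs of the members 4 lay above 0 (median -0.03). Of 9 tested formative epiblast genes 4 lay above 0 (median -0.26), and of 6 secreted antagonists and organizer factors 4 did (median 0.04). A low gene could pass the filter through the shBcat libraries alone, as Sox1 did, and such genes were not set apart in these lists. The share of all genes above 0 was not counted, so these counts are a description with nothing read from them.

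The shE2F6 comparison asks what E2F6, a repressor that silences germline genes in ES cells, does in the same medium. It shares the 6 shGFP libraries with the shBcat and shHP1r comparisons. None of the genes tested passed, with Sox1 set aside as given below, and 1 had an unadjusted p under 0.05, while 1.06% of all genes passed (0.41% higher and 0.652% lower, 153 in all, with 4857 at an unadjusted p under 0.05). Hesx1 stood at 2.90 and 2.84 FPKM with shE2F6 and at 1.20 to 1.89 FPKM with shGFP. Its groups did not overlap, with a log2 change of 0.64 (SE 0.19, adjusted p = 0.0822). Sox1 stood at 0.158 and 0.160 FPKM with shE2F6, below all 6 shGFP libraries, which were under 1 FPKM too. Sox1 was in the table tested only through the shBcat libraries, so its log2 difference of -0.21 is given with no test.

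The other 4 overlapped between shE2F6 and shGFP. Otx2 stood at 1.23 and 0.689 FPKM with shE2F6 (log2 change -0.24, SE 0.16), Lmx1b at 1.28 and 1.21 FPKM (0.07, SE 0.10), Pax6 at 0.783 and 1.45 FPKM (0.26, SE 0.32) and Sall1 at 29.9 and 20.2 FPKM (-0.23, SE 0.15). For Otx2, Pax6 and Sall1 the 2 shE2F6 libraries lay farther apart than the group means did. Over all genes the change had a median of -0.20. Scaling by median of ratios moved that median by 0.20 and the share of higher genes among the called from 38.6% to 64.0%, with Sall1 then at 0.014. The 6 neuron markers summed to 21.3 and 22.6 FPKM with shE2F6, below every shGFP library.

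Mitochondrial share splits this comparison, since both shE2F6 libraries and only 2 of 6 shGFP libraries were high. With a term for that set, Hesx1 had a log2 change of 0.71 (adjusted p = 0.126), Otx2 of -0.03 and Pax6 of -0.38, the last with its sign turned, and none of the 6 genes passed. Without shGFP replicates 3 and 4, a choice made after seeing the data, 8495 genes were called in all. Among them Hesx1 (0.61, adjusted p = 0.0279) and Pax6 (0.58, adjusted p = 0.0169) were higher and Otx2 lower (-0.34, adjusted p = 0.047). No shGFP library of high mitochondrial share is left in that fit, so the hairpin and this share cannot be told apart there. Pax6 stood at 0.783 and 1.45 FPKM with shE2F6, below the 1.77 and 1.68 FPKM of shGFP replicates 3 and 4. Without shGFP replicate 3 alone, Hesx1 rose (0.65, adjusted p = 0.0412) and 4166 genes were called.

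HP1γ, a reader of methylated histone H3, was the target of shHP1r. Lmx1b rose with shHP1r and was the only one of the 6 genes called (Sox1 again entered only through the shBcat libraries), beside 7.59% of all genes (5.89% higher, 1.7% lower). It stood at 2.16 and 1.79 FPKM with shHP1r and at 1.01 to 1.40 FPKM with shGFP, with no overlap, log2 change 0.48 (SE 0.10, adjusted p = 0.0153). Without shHP1r replicate 1 the change was 0.39 and was not called (adjusted p = 0.224), and in a fit of the 2 groups alone it was not called either (adjusted p = 0.061). The 6 shGFP libraries form 3 close pairs. With those pairs and the pair of each hairpin averaged, which leaves 1 value for shHP1r, the change in Lmx1b was still 0.48 but no gene in the table was called by limma, with 607 at an unadjusted p under 0.05. The calls of Sox3 and Sfrp2 that follow are thus also lost in that fit. The paralog Lmx1a stood at 2.50 ± 0.66 FPKM (SD, n = 2) with shHP1r and 0.404 ± 0.074 FPKM (SD, n = 6) with shGFP. It passed the filter only through the shHP1r libraries, where it is high, so its log2 difference of 1.31 (SE 0.11) is given with no test.

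Sall1 stood at 19.5 and 22.0 FPKM with shHP1r, below all 6 shGFP libraries, and its log2 change was -0.47 with SE 0.15 (adjusted p = 0.0915). With a term for mitochondrial share the change was -0.47 and passed (adjusted p = 0.0469), and Lmx1b kept its call (0.43, adjusted p = 0.00671). Otx2 stood at 1.38 and 1.48 FPKM with shHP1r, inside the shGFP range (log2 change 0.09, SE 0.16). The remaining 3 genes differed widely between the 2 shHP1r libraries. Hesx1 stood at 0.703 FPKM in replicate 1 and 2.05 FPKM in replicate 2, Sox1 at 0.841 and 0.189 FPKM, and Pax6 at 0.941 and 0.336 FPKM. The neuron markers split the same libraries, with a sum of 62.2 FPKM in replicate 1 and 23.2 FPKM in replicate 2, and their part in the values was not tested. Without replicate 1 the log2 changes of Sox1 and Hesx1 turned sign (-0.17 and 0.30). Fibroblast markers, of which 3 of 7 were listed, summed to 3.32 and 5.20 FPKM with shHP1r and 0.677 to 1.63 FPKM with shGFP.

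Among the related lists 1 of 12 tested forebrain and neural plate factors and 2 of 9 paralogs rose with shHP1r, as did 1 of 3 midbrain and hindbrain factors and 1 of 9 formative epiblast genes, and none fell in any list. Of all genes 5.89% rose and 1.7% fell. The risers were Sox3 and Lmx1a. Sox3, a SoxB1 gene that stands in 3 of these lists, was at 4.61 ± 2.6 FPKM (SD, n = 2) with shHP1r and 1.32 ± 0.36 FPKM (SD, n = 6) with shGFP (log2 change 1.21, adjusted p = 0.0162). Lmx1a, which stands in 2, entered only through the shHP1r libraries, so its place in these counts is no test result. Of 6 secreted antagonists and organizer factors Sfrp2, a secreted Wnt inhibitor, rose (log2 change 0.76, adjusted p = 0.0179). With shE2F6 none of the tested members of these lists was called.

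In QKO cells a hairpin against β-catenin was set beside shGFP. None of the 5 genes tested passed, 1 had an unadjusted p under 0.05, and 2.15% of all genes passed (0.585% higher and 1.56% lower, 334 in all, with 4464 at an unadjusted p under 0.05). All 7 genes overlapped between the groups. Otx2 stood at 17.0, 17.3 and 19.0 TPM with shBcat and at 14.3, 13.8 and 17.5 TPM with shGFP. Only the highest shGFP value reached into the shBcat range, and the log2 change was 0.22 (SE 0.10, adjusted p = 0.187). Sall1 stood at 84.3, 88.8 and 89.2 TPM with shBcat and at 79.0, 76.6 and 84.9 TPM with shGFP, and its log2 change was 0.12 with SE 0.05 (adjusted p = 0.152), with the same kind of overlap.

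Hesx1 stood at 2.11, 2.54 and 3.37 TPM with shBcat and 3.04, 2.98 and 2.44 TPM with shGFP (log2 change -0.07, SE 0.15). Lmx1b stood at 3.26, 3.99 and 4.51 TPM with shBcat and 3.19, 2.89 and 4.01 TPM with shGFP (0.17, SE 0.14), and Pax6 at 3.79, 5.11 and 4.09 TPM with shBcat and 4.50, 4.42 and 3.91 TPM with shGFP (0.01, SE 0.12). The groups interleaved for all 3. Sox1 (0.33 to 0.56 TPM with shBcat, 0.42 to 0.52 TPM with shGFP) and Six3 (0.05 to 0.10 TPM with shBcat, 0.08 to 0.09 TPM with shGFP) stayed under the filter and were not tested. The difference between the QKO and V6.5 responses was not tested, since the 2 tables hold different units.

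**Figure D2:**
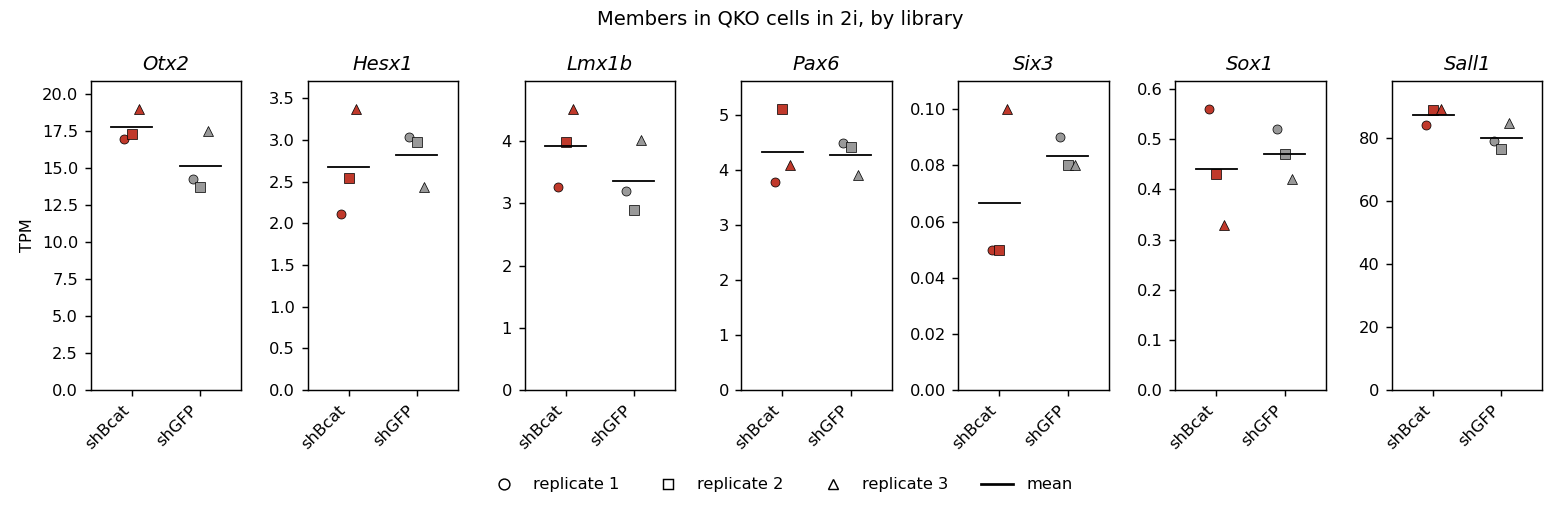
TPM of the 7 genes (linear axes from 0, 1 point per library, symbols for replicate numbers, black lines for means) in QKO cells in 2i with shBcat or shGFP. The groups overlap for every gene, with Otx2 at 17.0 to 19.0 TPM with shBcat and 13.8 to 17.5 TPM with shGFP.

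Fibroblast or feeder markers differed between these groups, at 55.6 to 83.6 TPM summed with shBcat and 235 to 553 TPM with shGFP, with all 7 reaching 1 TPM in every shGFP library. The 7 neuron markers summed to 163 to 168 TPM with shBcat and 135 to 141 TPM with shGFP, but single markers went both ways. Stmn2 (71.5 to 81.5 TPM with shBcat, 55.8 to 58.7 TPM with shGFP) and Tubb3 were higher without overlap. Elavl3 (1.41 to 1.59 TPM with shBcat, 1.83 to 2.63 TPM with shGFP) and Neurod1 were lower without overlap. Map2 and Rbfox3 overlapped, and Dcx was at 0 to 0.01 TPM in every library of both groups. The part of the fibroblast and neuron markers in the members' values was not tested. Of 14 forebrain and neural plate factors tested 1 rose and 1, Zeb2, fell (log2 change -1.06, adjusted p = 0.0494), and of 5 midbrain and hindbrain factors 1 fell. Over all genes 0.585% rose and 1.56% fell. Of 8 formative epiblast genes Tdgf1 rose (0.30, adjusted p = 0.0408), and none of 8 paralogs or of 8 secreted antagonists and organizer factors was called. Median-of-ratios scaling moved the share of higher genes among all called from 27.2% to 49.6%.

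The epiLC series without a hairpin shows how the same genes move on leaving the naive state. At 24 h against 2i Sall1 and Otx2 rose, where 76% of all genes were called (36.2% higher, 39.8% lower). Sox1 and Pax6 passed the filter only through the epiLC libraries, where they are high, and Hesx1 and Lmx1b only with the help of the 2i libraries, where they are high. A gene that enters this way had to differ, so the values of these 4 are given with no test.

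Sox1 stood at 19.7 and 19.2 TPM at 24 h and at 0.44 and 0.45 TPM in 2i, a ratio of means of 43.7 and a log2 difference of 3.82. Pax6 stood at 14.4 and 14.3 TPM at 24 h and at 0.61 TPM in both 2i libraries, a log2 difference of 3.25. Both genes were under 1 TPM in 2i and above 14 TPM in every control epiLC library. Sall1 stood at 98.7 and 98.5 TPM at 24 h and at 26.2 and 27.4 TPM in 2i, a log2 change of 1.84 (SE 0.04, adjusted p = 8.7e-08). Otx2 stood at 30.5 and 32.2 TPM at 24 h and at 14.3 and 14.7 TPM in 2i, a log2 change of 1.06 (SE 0.04, adjusted p = 1.35e-06). Otx2 thus had a mean of 14.5 TPM in 2i already, where Pax6 and Sox1 were under 1 TPM.

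Lmx1b was lower, with 0.23 and 0.21 TPM at 24 h and 1.89 and 1.86 TPM in 2i, a log2 difference of -1.24. Hesx1 stood at 0.71 and 0.65 TPM at 24 h and at 1.65 and 1.61 TPM in 2i, a log2 difference of -0.65. Six3 stood at 0.07 and 0.09 TPM at 24 h and at 0.02 and 0.03 TPM in 2i, under the filter. No group overlapped with another for any of the 7 genes. The share of all genes without overlap was not counted here, so nothing is read from this.

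At 48 h against 24 h Sox1 and Pax6 rose and Sall1 and Otx2 fell, beside 74.2% of all genes called (45.2% higher, 28.9% lower). Hesx1 and Lmx1b entered the table tested only with the 2i libraries, which this comparison does not use, and have no test here. Sox1 rose again, to 37.1 and 32.9 TPM at 48 h (log2 change 0.82, SE 0.07, adjusted p = 4.1e-05), and Pax6 rose to 19.0 and 18.1 TPM (0.35, SE 0.06, adjusted p = 0.00121). Lmx1b stood at 1.08 and 0.88 TPM at 48 h and 0.23 and 0.21 TPM at 24 h, a log2 difference of 0.70, still below its 2i level. Sall1 fell to 35.8 and 34.97 TPM at 48 h (-1.45, SE 0.04, adjusted p = 3.46e-07) and Otx2 to 21.7 and 22.2 TPM (-0.49, SE 0.04, adjusted p = 5.71e-05). Hesx1 stood at 0.19 and 0.20 TPM at 48 h and 0.71 and 0.65 TPM at 24 h, a log2 difference of -0.49. Sall1 and Otx2 therefore had their highest level at 24 h, Sox1 and Pax6 theirs at 48 h, and Hesx1 its highest in 2i. Six3 stood at 0.53 and 0.63 TPM at 48 h, under the filter. The transcript on its other strand, Six3os1, stood at 1.96 ± 0.05 TPM at 48 h and 0.080 ± 0.028 TPM at 24 h (SD, n = 2 each). It passed the filter only through the 48 h libraries, where it is high, so its log2 difference of 1.45 is given with no test. The strand setting of the kit is not stated, so reads of Six3 and Six3os1 cannot be told apart. Median-of-ratios scaling shifted the median log2 change of all genes by -0.15 and the share of higher genes among the called from 61.0% to 47.9%, with Sox1, Pax6, Sall1 and Otx2 keeping their direction and their call.

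The counts of related genes stand beside the shares over all genes, 36.2% higher and 39.8% lower at 24 h and 45.2% higher and 28.9% lower at 48 h. At 24 h 9 of 17 tested forebrain and neural plate factors rose and 3 fell, with a median log2 change of 0.60 beside -0.04 over all genes, among the rises the neural factor Sox11 (2.83) and Sox3 (2.68). At 48 h 12 rose and 4 fell (median 0.79 beside 0.12). Among the lowest adjusted p, the neural stem cell gene Nes (1.99) and the RNA-binding protein gene Msi1 (1.06) rose and Sox2 (-0.92) fell. Of 9 midbrain and hindbrain factors 6 rose and none fell at 24 h, and 7 rose and 2 fell at 48 h, with Gbx2, a posterior counterpart of Otx2, at 3.50 and then 1.45. Of 10 tested paralogs 7 rose and 1 fell at 24 h, with Sall2 at 2.91, Sox3 at 2.68 and Sox2 at -0.50, and 4 rose and 5 fell at 48 h. Of 11 formative epiblast genes 10 rose at 24 h (Pou3f1 5.10, Dnmt3a 2.83, Dnmt3b 4.63), and 3 rose and 7 fell at 48 h. Of 8 secreted antagonists and organizer factors 3 rose and 4 fell at 24 h, among the falls the Wnt inhibitor Sfrp1 at -2.75, and all 8 rose at 48 h. Lists share genes (Sox2, Sox3 and Sall2 stand in more than 1), and their counts include genes that, like Pou3f1 and Fgf5, were under 1 TPM in 2i and entered only through the epiLC libraries. Neuron markers summed to 67 to 71 TPM in 2i, 103 to 106 TPM at 24 h and 87 to 89 TPM at 48 h. Single markers went both ways between 24 and 48 h. Map2 (mean 2.775 TPM at 24 h, 9.56 TPM at 48 h) and Rbfox3 (0.255 and 0.875 TPM) were higher at 48 h without overlap. Stmn2 (56.4 and 40.2 TPM), Tubb3 (38.6 and 31.6 TPM) and Neurod1 (2.66 and 2.125 TPM) were lower without overlap, and Elavl3 and Dcx overlapped. The part of these markers in the members' values was not tested.

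**Figure D3:**
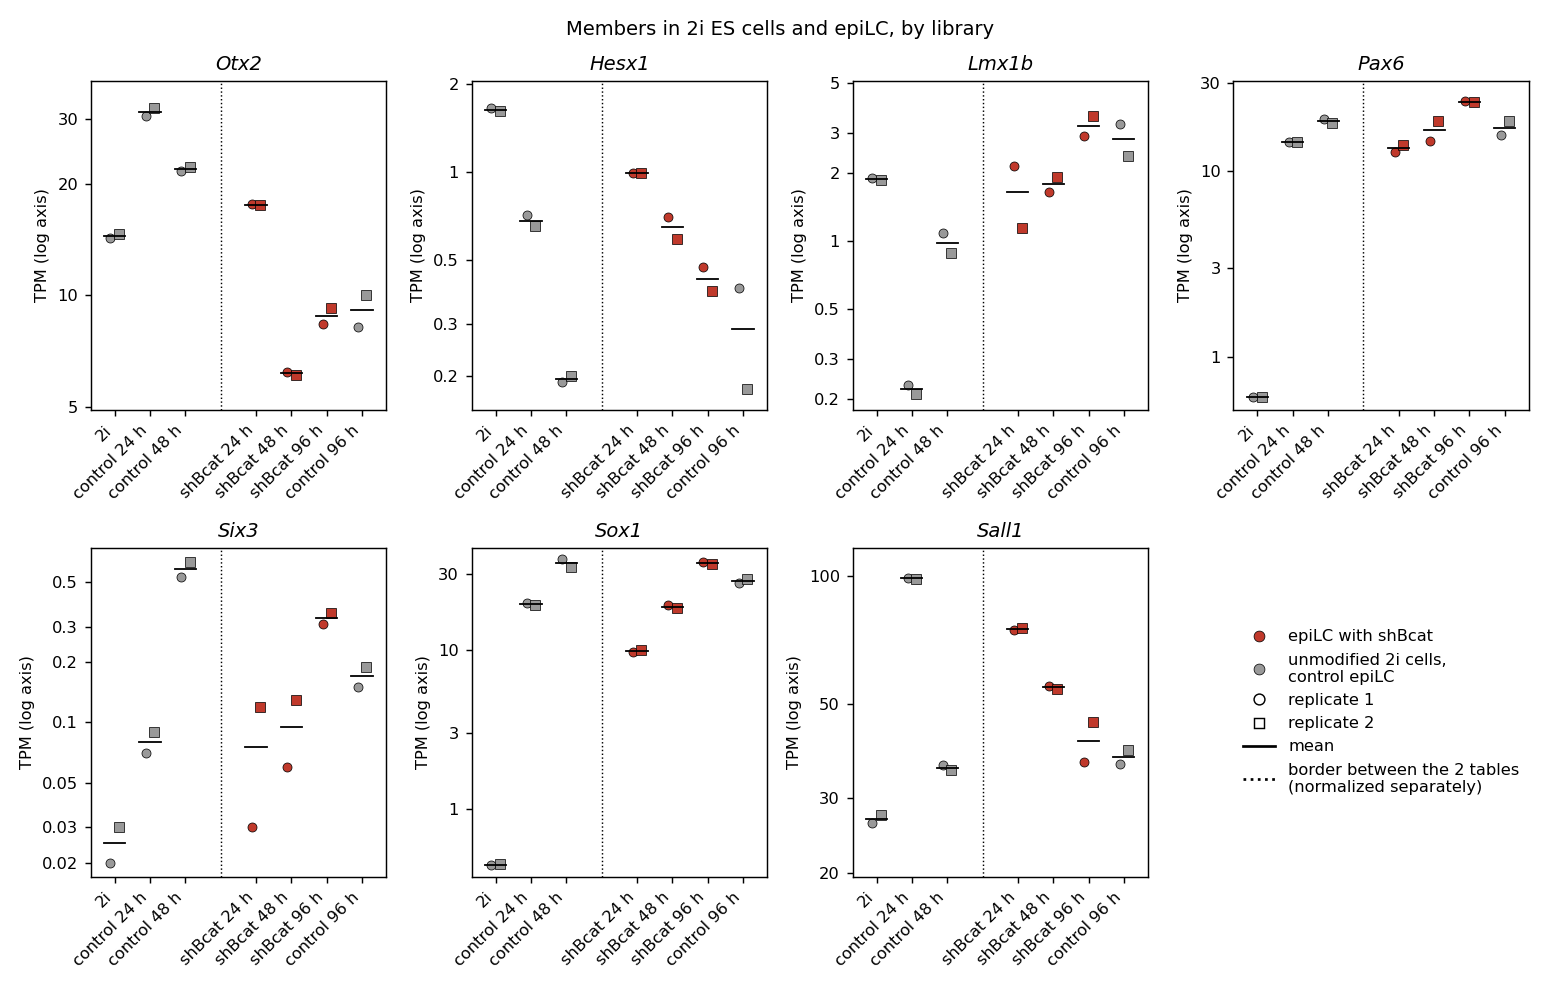
TPM of the 7 genes (log axes, 1 point per library, black lines for means) in unmodified 2i cells and control epiLC at 24 and 48 h, and, right of the dotted border, in the other epiLC table, with shBcat at 24, 48 and 96 h beside the control of 96 h. Sox1 climbs with time on both sides (to 35.02 TPM at 48 h in controls and 35.2 TPM at 96 h with shBcat), and Sall1 has its highest level at 24 h on both sides.

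In epiLC at 96 h shBcat was set against control epiLC in 1 table. Sox1 rose with shBcat and was the only one of 5 tested genes called, beside 4.82% of all genes (2.29% higher, 2.54% lower). It stood at 35.7 and 34.7 TPM with shBcat and at 26.3 and 27.7 TPM in control epiLC, with no overlap and a log2 change of 0.37 (SE 0.06, adjusted p = 0.0144). Pax6 stood at 23.8 and 23.5 TPM with shBcat and at 15.6 and 18.7 TPM in control epiLC. The groups did not overlap, and the log2 change of 0.45 (SE 0.12) missed the threshold (adjusted p = 0.0873). Six3 stood at 0.31 and 0.35 TPM with shBcat and at 0.15 and 0.19 TPM in control epiLC, without overlap but under the filter.

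Otx2 stood at 8.36 and 9.25 TPM with shBcat and at 8.20 and 10.0 TPM in control epiLC at 96 h, the shBcat values inside the range of the controls (log2 change -0.04, SE 0.10, adjusted p = 0.876). Lmx1b stood at 2.90 and 3.56 TPM with shBcat and 3.28 and 2.37 TPM in control epiLC (0.15, SE 0.20), and Sall1 at 36.5 and 45.2 TPM with shBcat and 36.0 and 39.0 TPM in control epiLC (0.11, SE 0.09). Hesx1 stood at 0.47 and 0.39 TPM with shBcat and 0.40 and 0.18 TPM in control epiLC, under the filter. These 4 overlapped. The call of Sox1 was lost without control replicate 1 (0.34, adjusted p = 0.0778), control replicate 2 (0.40, adjusted p = 0.0527) or shBcat replicate 1 (0.35, adjusted p = 0.0637), and in a fit of the 2 groups alone (adjusted p = 0.0773).

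Sox2, the SoxB1 partner of Sox1, also rose at 96 h, to 63.5 ± 1.9 TPM with shBcat, against 52.1 ± 1.3 TPM in control epiLC (SD, n = 2 each, log2 change 0.28, adjusted p = 0.0195), the only one of 17 forebrain and neural plate factors called. Over all genes 2.29% rose and 2.54% fell. Of 7 midbrain and hindbrain factors Fgf8, a signal of the midbrain-hindbrain boundary, fell (-1.15, adjusted p = 0.000485). Of 8 secreted antagonists and organizer factors Lefty2 fell (-0.50, adjusted p = 0.00359). Foxa2 stood at 0.61 to 0.91 TPM with shBcat and 2.41 to 2.98 TPM in control epiLC. It passed the filter only through the control libraries, where it is high, so its log2 difference of -1.07 is given with no test. Among 11 formative epiblast genes Dnmt3l (0.73) and Foxd3 (0.51) rose and Lef1 (-0.86) fell. Neuron markers summed to 118 and 124 TPM with shBcat and 106 and 108 TPM in control epiLC, and their part was not tested.

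Within shBcat epiLC the genes changed with time as well. At 48 h against 24 h 1 of 5 tested genes rose and 2 fell, beside 33.4% of all genes (15.7% higher, 17.8% lower). Otx2 fell to 6.22 and 6.11 TPM at 48 h, against 17.6 TPM in both libraries at 24 h (log2 change -1.38, SE 0.10, adjusted p = 7.19e-05). Sox1 rose to 19.0 and 18.3 TPM at 48 h, against 9.63 and 9.93 TPM at 24 h (0.87, SE 0.06, adjusted p = 6.77e-05). Sall1 fell to 55.2 and 54.1 TPM at 48 h, against 74.7 and 75.6 TPM at 24 h (-0.45, SE 0.09, adjusted p = 0.00836), a call lost without shBcat 48 h replicate 2 (-0.44, adjusted p = 0.0511). Pax6 stood at 14.6 and 18.6 TPM at 48 h and 12.7 and 13.9 TPM at 24 h, without overlap (0.29, SE 0.12, adjusted p = 0.102), and passed without 48 h replicate 1 (0.45, adjusted p = 0.0415). Lmx1b stood at 1.65 and 1.91 TPM at 48 h and 2.14 and 1.14 TPM at 24 h, with overlap (0.10, SE 0.20). Hesx1 (0.70 and 0.59 TPM at 48 h, 0.99 TPM in both at 24 h) and Six3 (0.06 and 0.13 TPM at 48 h, 0.03 and 0.12 TPM at 24 h) were under the filter.

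At 96 h against 48 h with shBcat 4 of 5 genes rose and 1 fell, beside 35% of all genes (25.2% higher, 9.83% lower). Sox1 had the largest change (0.88, SE 0.06, adjusted p = 9.93e-05), with its libraries at 35.7 and 34.7 TPM at 96 h and 19.0 and 18.3 TPM at 48 h. Pax6 (0.50, SE 0.12, adjusted p = 0.0169), Otx2 (0.45, SE 0.10, adjusted p = 0.0105) and Lmx1b (0.60, SE 0.20, adjusted p = 0.0477) rose and Sall1 fell (-0.42, SE 0.09, adjusted p = 0.0121), each without overlap. Hesx1 and Six3 were under the filter. Each of these 4 calls was lost without 1 or more of the 4 libraries, with adjusted p of 0.058 to 0.0945 for Pax6, 0.0532 to 0.0605 for Otx2, 0.0708 to 0.194 for Lmx1b and 0.0579 to 0.0643 for Sall1 where lost. Median-of-ratios scaling moved the share of higher genes among all called from 71.9% to 51.9%, and Lmx1b then missed the threshold (0.53, adjusted p = 0.075). Over the 4 groups of this table Otx2 was ordered 24 h shBcat, control 96 h, shBcat 96 h and shBcat 48 h from high to low, of which both 96 h groups lay within each other's spread. Sox1 was ordered shBcat 96 h, control 96 h, shBcat 48 h and shBcat 24 h, with no overlap between neighbours.

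Between 24 and 48 h with shBcat 8 of 17 forebrain and neural plate factors rose and 1 fell, the rises of lowest adjusted p being Nes (1.07), Sox11 (0.94) and Olig3 (1.59), where 15.7% of all genes rose and 17.8% fell. Of 7 midbrain and hindbrain factors 5 rose and none fell, among them Fgf8 (1.41) and Hoxa2 (1.64). Of 11 paralogs 3 rose and 3 fell, of 8 secreted antagonists and organizer factors 6 rose and none fell, and of 11 formative epiblast genes 4 rose and 3 fell. Between 48 and 96 h 9 of 17 forebrain and neural plate factors rose and none fell, with Msi1 (0.74), Irx3 (1.14) and Zfp521 (1.34) of lowest adjusted p, where 25.2% of all genes rose and 9.83% fell. Of 7 midbrain and hindbrain factors 4 rose and 1 fell, of 11 paralogs 3 rose and 2 fell, and of 8 secreted antagonists and organizer factors 3 rose and 1 fell. Of 11 formative epiblast genes 2 rose and 6 fell, among the falls Tdgf1 (-0.82), the DNA methyltransferase gene Dnmt3a (-0.86) and Dnmt3l (-0.88), which encodes its cofactor.

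Control epiLC at 24 and 48 h lie in another table from their shBcat counterparts, so their levels stand next to each other here with no test. Otx2 averaged 17.6 TPM with shBcat and 31.4 TPM in controls at 24 h, and 6.17 TPM with shBcat and 22.0 TPM in controls at 48 h. Sox1 averaged 9.78 TPM with shBcat and 19.4 TPM in controls at 24 h, and 18.6 TPM with shBcat and 35.02 TPM in controls at 48 h. Both were lower with shBcat at both times in these tables, while at 96 h, within 1 table, Otx2 overlapped and Sox1 was higher. Sall1 averaged 75.1 TPM with shBcat and 98.6 TPM in controls at 24 h, and 54.6 TPM with shBcat and 35.4 TPM in controls at 48 h. Lmx1b averaged 1.64 TPM with shBcat and 0.22 TPM in controls at 24 h, and 1.78 TPM with shBcat and 0.98 TPM in controls at 48 h. Hesx1 averaged 0.99 TPM with shBcat and 0.68 TPM in controls at 24 h, and 0.645 TPM with shBcat and 0.195 TPM in controls at 48 h. Pax6 averaged 13.3 TPM with shBcat and 14.4 TPM in controls at 24 h, and 16.6 TPM with shBcat and 18.6 TPM in controls at 48 h. Six3 averaged 0.075 TPM with shBcat and 0.080 TPM in controls at 24 h, and 0.095 TPM with shBcat and 0.58 TPM in controls at 48 h.

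**Figure D4:**
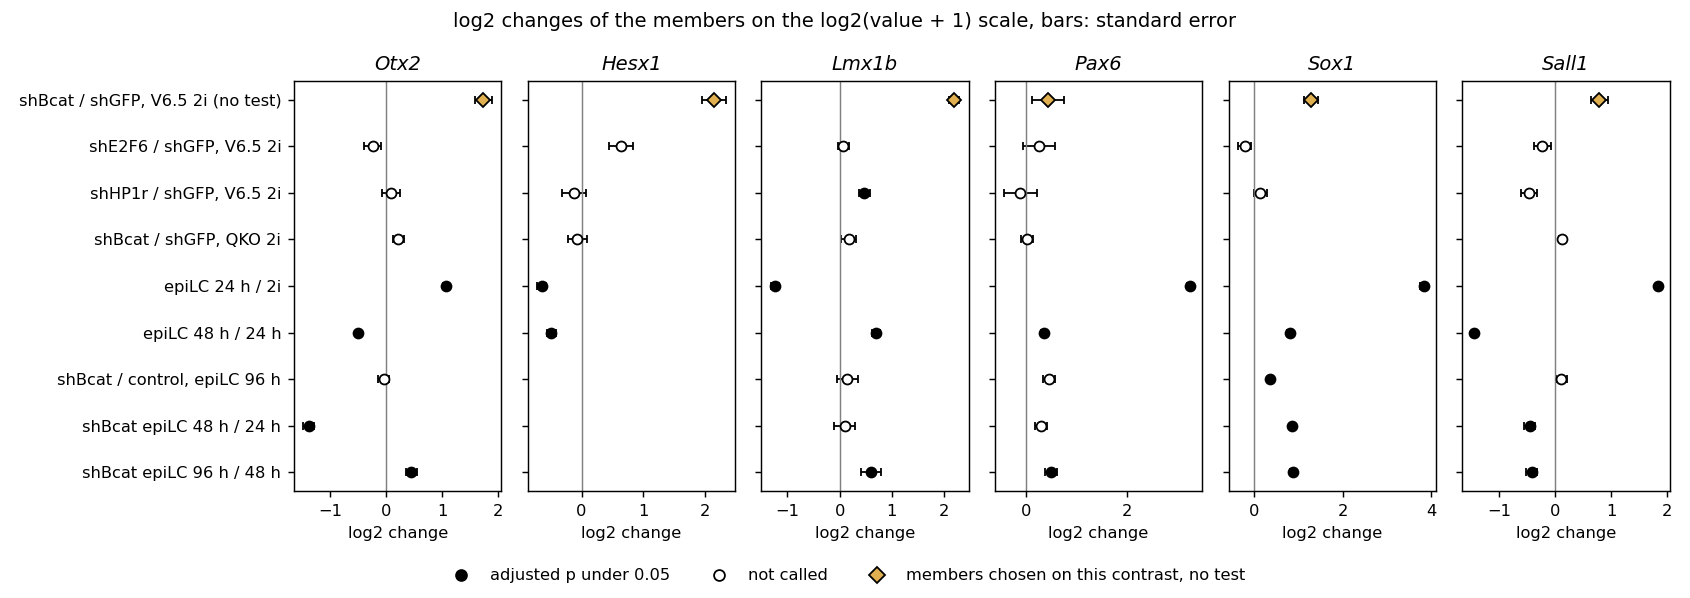
log2 change of 6 genes (x axes, on the log2(value + 1) scale, bars for the standard error of the limma fit) in each comparison (rows, the first-named group over the second), where diamonds mark the contrast on which the genes were chosen, which has no test, filled circles the changes with an adjusted p under 0.05 and open circles the others. The epiLC 24 h row has 6 filled circles, of which Otx2 and Sall1 did not depend on the filter and the other 4 passed it only through the group where they are high, and the QKO row has none. The filled circles of Hesx1 and Lmx1b in the epiLC 48 h row and the open circles of Sox1 in the shE2F6 and shHP1r rows also belong to genes that passed only through a group outside the comparison, and are not read as tests.

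Among the 7 genes, likeness across libraries differed from table to table. In the 12 V6.5 hairpin libraries Otx2 and Lmx1b had a Pearson r of 0.96, which rests on the 2 shBcat libraries the genes were chosen on. In the 6 control epiLC and 2i libraries their r was -0.99, and Sox1 and Pax6 had an r of 1.00 over 3 groups of 2. In the 8 libraries of the shBcat epiLC table Sox1 and Pax6 had an r of 0.86 and Sox1 and Sall1 of -0.93. In the 6 QKO libraries Otx2 and Sall1 had an r of 0.96. These are descriptions over libraries that share groups, with no test.

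Otx2, Lmx1b, Pax6 and Sall1 were tested in all 4 tables, and the genes most like them were ranked by the mean over tables of the Pearson r of log2 values among the 234 genes tested in all 4 tables with an SD of at least 0.3 in each, so high mean values are picked from many, and the V6.5 table holds the shBcat libraries the genes were chosen on. For Otx2 these were Pipox (mean r 0.73), Pla2g10, Foxn4, Chac1 and Slc6a9 (0.54). For Sall1 they were Foxn4 (0.84), Pipox (0.83), Pla2g10, Gtsf1l and Slfn9 (0.58), 3 of which were also on the Otx2 list. For Lmx1b they included Car12 (0.82), Tagln3, Prom1 and Kcnip2 (0.71), and for Pax6 Slc27a2 (0.57), Zfp36l1, Pkdcc, Marcks and Acta2 (0.52). The measure ran over 12, 6, 6 and 8 libraries, and the mean can hide a table that goes the other way: Chac1 and Slc6a9 had an r of 0.89 and 0.92 with Otx2 in the V6.5 table and of -0.29 and -0.55 in the QKO table.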

How the data were processed

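RNA was isolated with TRIzol, treated with DNase and made into libraries with a TruSeq RNA kit, per the labels' protocols. The authors deposited FPKM values for 12 V6.5 hairpin libraries (bcl2fastq 2.18, TopHat2 2.0.13, Cufflinks 2.2.1 and Bowtie2) and TPM values in 3 tables of 6, 6 and 8 libraries (bcl2fastq 2.18, STAR, RSEM and Bowtie2), on mm10, per the submitters' processing notes. Other versions are not given in the sources used here. The other 18 of 50 samples were not analysed here, nor was 1 further column of per-sample values. From the deposited values, log2(value + 1) was fitted per table with limma 3.58.1 (R 4.3.3, variance trend, robust moderation, all groups in 1 fit), for genes with at least 1 in at least 2 libraries, and p-values (two-sided) were adjusted by Benjamini-Hochberg over all genes tested, with a threshold of 0.05. Fold changes on this scale understate those of low genes. Depth is unknown, so counting intervals are left out. On simulated data at least 73% of log2 changes of 1 and 93% of changes of 2 were recovered in each comparison. Changes were planted only in genes above a set mean level, and libraries were drawn independently, unlike the close pairs of shGFP. The rates thus do not describe lower genes, such as Sox1 in FPKM, or smaller changes. The members and gene lists were chosen with earlier results of these data known. Named were the 7 members, up to 3 called genes per list and comparison by adjusted p, marker genes, and the 5 genes most like each member, of which a few are not reported here. The labels do not say that replicate numbers pair libraries. Alternatives were the pseudocount, filter, scaling, samples in the fit, replicate block, libraries left out and mitochondrial share.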

Additional observations from a re-analysis of the deposited data

How the results depend on the processing

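Of 512 values of single genes under the alternatives, 456 kept their direction and their side of the threshold, 26 lost the call, 9 gained one and 21 changed sign. For shE2F6 against shGFP none of the 6 genes was called in the fit reported, 1 with the replicate block (Pax6, 0.69, adjusted p = 0.043), 3 without shGFP replicates 3 and 4 (chosen after seeing the data), and 0 to 1 with a library left out. In the fit without shGFP replicates 3 and 4 the hairpin and mitochondrial share cannot be told apart. For shHP1r 1 was called, 0 with a minimum of 5 FPKM, with the compared groups alone, with the replicate block or with shGFP averaged in pairs, 2 with the term for mitochondrial share, and 0 to 1 with a library left out. At 96 h in epiLC 1 was called, 0 with the compared groups alone, 2 with the replicate block, and 0 to 1 with a library left out. Between 96 and 48 h with shBcat 5 were called, and 2 to 3 with a library left out. In QKO cells none was called under any alternative. The cause of these moves was not tested, beyond the fewer libraries or genes in a fit.

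The changes of sign were among changes that were not called or had no test. For shE2F6, Sall1 was 0.014 with median-of-ratios scaling and -0.50 to 0.044 with an shE2F6 library left out, and Pax6 was -0.38 with the mitochondrial term. For shHP1r, Pax6 was 0.32 with the replicate block, 0.20 with the mitochondrial term or without shGFP replicates 3 and 4, and -0.39 to 0.15 with a library left out, Otx2 was -0.018 with that term or without those 2 libraries, and with a library left out Hesx1 ran over -0.54 to 0.30 and Sox1 over -0.17 to 0.46. In QKO cells, with a library left out, Hesx1 ran over -0.20 to 0.046 and Pax6 over -0.094 to 0.082. At 96 h Otx2 ran over -0.17 to 0.090, Lmx1b over -0.021 to 0.32 and Sall1 over -0.037 to 0.27, and between 48 and 24 h with shBcat Lmx1b ran over -0.18 to 0.38. Pax6 with shBcat in V6.5 cells was -0.20 against shGFP replicates 3 and 4 alone, while both shBcat libraries lay above shGFP replicates 1, 2, 5 and 6.

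The 153 genes called for shE2F6 became 278 with a pseudocount of 0.1, 284 with a minimum of 5, 239 with scaling, 36 in the compared groups alone, 7685 with the replicate block, 257 with the mitochondrial term, 8495 without shGFP replicates 3 and 4, 0 with pairs averaged, and 14 to 4166 with a library left out. The 1093 for shHP1r became 1847 without the filter, 481 with a minimum of 5, 557 in the compared groups alone, 609 with the block, 3296 with the term, 2330 without those 2 libraries, 0 with pairs averaged and 290 to 1366 with a library left out. The 334 in QKO cells became 570 with a pseudocount of 0.1, 14 without the filter, 855 with a minimum of 5, 138 with the block and 8 to 964 with a library left out, and the 738 at 96 h became 341 without the filter, 268 in the compared groups alone and 279 to 453 with a library left out. With a library left out, the 5115 between 48 and 24 h with shBcat became 2870 to 3038, and the 5360 between 96 and 48 h 2611 to 4664. Same-numbered QKO libraries had deviations correlated at -0.012, -0.042 and 0.131, so the numbers were not taken as a pairing.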

Other observations

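Levels in 2i cells differed between the tables. In the TPM tables, which were normalized separately, Pax6 averaged 4.28 TPM in QKO cells with shGFP and 0.61 TPM in unmodified V6.5 cells, and Sall1 80.2 TPM in QKO cells with shGFP and 26.8 TPM in unmodified V6.5 cells. Otx2 was close, with 15.2 TPM in QKO cells with shGFP and 14.5 TPM in unmodified V6.5 cells, as was Sox1, with 0.47 TPM in QKO cells with shGFP and 0.445 TPM in unmodified V6.5 cells. The difference was not tested.

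The ratio of Sall1 to Otx2 within a table also differed between hairpin and unmodified V6.5 cells in 2i. Mean Sall1 was 22.3 times mean Otx2 in FPKM with shGFP and 1.85 times mean Otx2 in TPM in unmodified cells, which were processed with different tools. With shBcat in V6.5 cells the ratio was 7.70.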
